A study of Mus musculus with 9 samples.

Results

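Axon guidance ligands and receptors are described here in poly(A) RNA of 9 tumour samples of LLC cells, a Lewis lung carcinoma line. A gene belonged to the set if its symbol was that of a semaphorin of classes 3 to 7, a plexin, a neuropilin, an ephrin, an Eph receptor, a netrin, an Unc5 receptor, a Slit or a Robo receptor. Of the 35321 rows of the table, 69 met this rule, of which 66 are ligand (35) or receptor (31) genes. The remaining 3 are the antisense transcripts Plxna4os1, Plxna4os2 and Plxna4os3, which the symbol rule also took in. The tumour cells had been placed under the skin of the right flank of male C57BL/6 mice that were 4 to 5 weeks old. Intraperitoneal dosing began 5 days later, and each group had 3 samples. One group received PBS as vehicle. The low dose was 0.1 mg/kg of digoxin and the high dose 1 mg/kg. The drug, a cardiac glycoside, blocks the sodium and potassium pump of the cell membrane. The labels give no genetic change in the cells or the mice of any group, and how long dosing lasted is not given in the sources used here. Nothing in the labels says that the samples of a group are separate mice, so the p-values rest on sample-to-sample spread that could be technical.

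Axon guidance cues were named for steering growing nerve fibres, and the same ligands and receptors guide blood vessels, immune cells and tumour cells. Secreted class 3 semaphorins bind neuropilins, which signal through plexins, while most membrane-bound semaphorins bind plexins directly. Netrins bind Dcc, neogenin and the Unc5 receptors, and Unc5 receptors are known as dependence receptors that can trigger cell death when netrin is missing. Ephrins and Eph receptors are both held in the membrane and signal between touching cells.

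Values are FPKM, fragments per kilobase of gene length scaled to library depth, so levels can be compared between genes. Libraries were read as pairs, and a recovered read here means a counted fragment. Depths recovered from the FPKM spacing ran from 40517065 reads (high-dose sample 3) to 51810960 (vehicle sample 3). A gene was tested if it reached 1 FPKM in at least 3 of the 9 samples, as 13687 genes did. Log2 fold changes are differences of means of log2(FPKM + 1), which understates the change of low genes, and adjusted p-values are from limma with Benjamini-Hochberg adjustment over all 13687 genes at a threshold of 0.05. In bulk tissue, fewer cells of a type and less RNA per cell cannot be told apart. A pair of digoxin libraries stood apart from the rest of their groups: low-dose sample 2 and high-dose sample 1 lay nearer to vehicle. Values without both, a setting chosen after seeing the data, are given where a result rests on them. Leaving out libraries because they lay nearer to vehicle favours larger changes and smaller spread. The p-values of that setting, or without either of these libraries alone, are thus descriptive and no support for a change.

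Of the 69 members, 38 passed the filter and 31 did not. At the low dose, 7 rose and 12 fell, and at the high dose, 7 rose and 11 fell. Among all genes tested, 21.6% were called higher and 20.7% lower at the low dose (42.2% together), and 20.7% and 25.2% at the high dose (45.9% together). The shares of tested members called, 50% and 47.4%, were thus near those of all genes. The median log2 fold change of the tested members was −0.07 and −0.05, against 0.02 and −0.04 over all genes tested. Values of the digoxin and vehicle groups did not overlap for 24 of the 38 members at either dose, where 60.2% and 58.3% of all tested genes did not overlap. None of the 14 tested receptors was called higher at either dose, while 5 fell at the low dose and 4 at the high dose. Without both in-between libraries, however, Plxna2, Plxnb2 and Plxnc1 were higher at both doses and Plxnd1 and Robo4 at the high dose. Of these, Plxna2 and Plxnc1 had every vehicle value under 1 FPKM and were tested only because of digoxin libraries. Among the 24 tested ligands 7 rose and 7 fell at each dose. With both in-between libraries left out, 13 members rose and 15 fell at the low dose, and 15 rose and 15 fell at the high dose. In that setting 31.9% of all genes were called higher and 29.6% lower at the low dose, and 31.4% and 29.9% at the high dose. Counts fell when a vehicle library was left out: without vehicle sample 3 there were 3 rises and 5 falls at the low dose and 3 and 6 at the high dose. Without vehicle sample 1 they were 4 and 7, then 4 and 9, and without vehicle sample 2, 4 and 6, then 5 and 7. Leaving out low-dose sample 1 or sample 3 gave 3 rises and 7 falls at that dose. Leaving out high-dose sample 2 gave 4 and 6 at that dose, leaving out sample 3 gave 3 and 8, and leaving out sample 1 gave 11 and 14. Shares of all genes called without a single library are not given here. These drops and gains thus cannot be read as particular to the members.

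**Figure D1:**
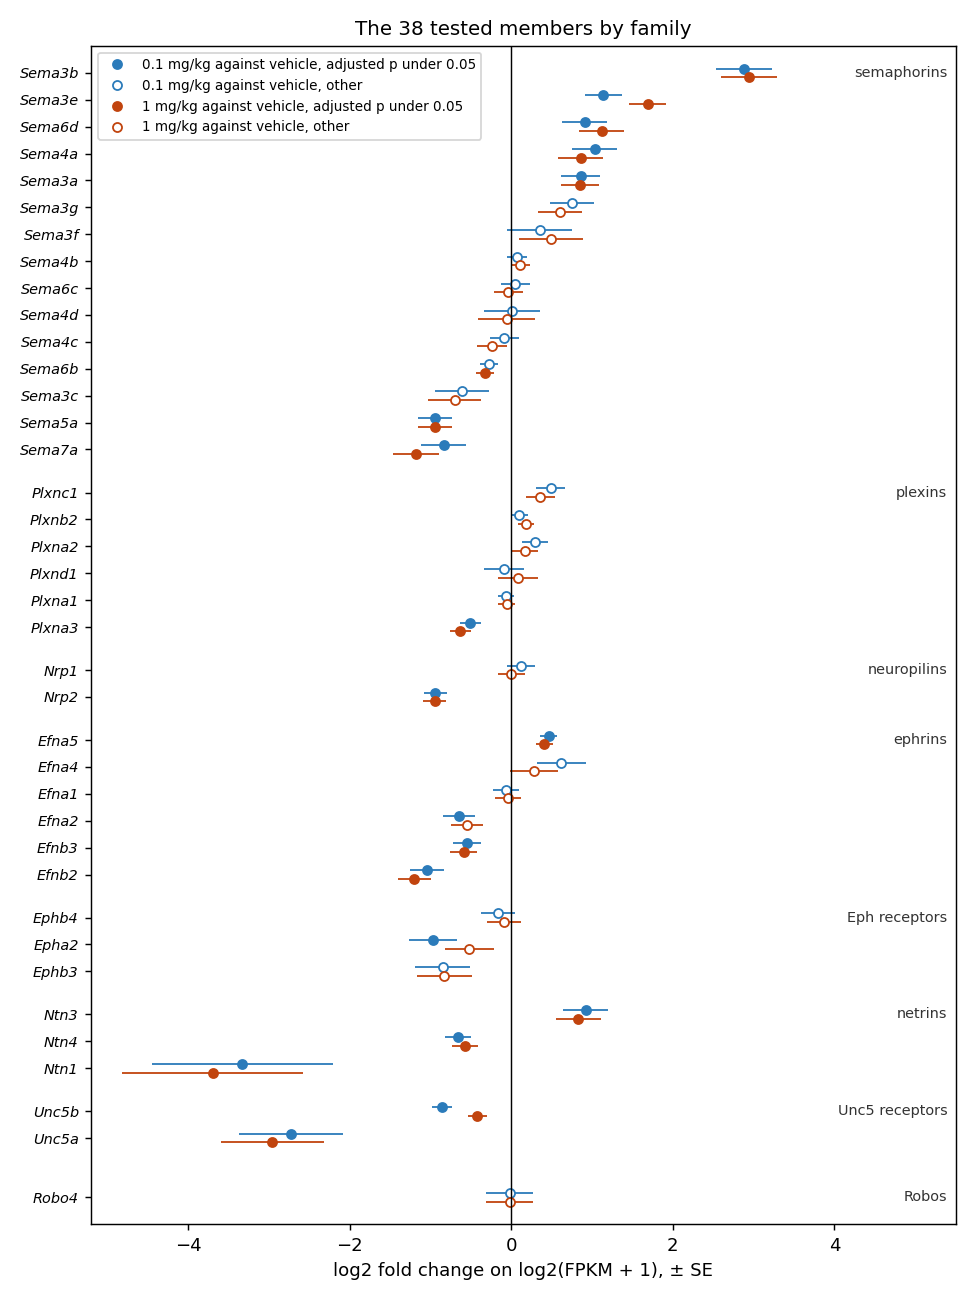
Log2 fold change on log2(FPKM + 1) against vehicle (x axis, bars are SE) for each of the 38 tested members (y axis, by family), at 0.1 mg/kg (blue) and 1 mg/kg (rust red). Filled points had an adjusted p under 0.05. Ntn1 and Unc5a lie farthest to the left, at −3.33 and −2.73 for 0.1 mg/kg and −3.70 and −2.96 for 1 mg/kg, and Sema3b farthest to the right, at 2.88 and 2.94.

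Netrin-1 and its receptor Unc5a showed the largest falls of the set. Ntn1 encodes a secreted, laminin-related guidance cue, and in vehicle tumours its FPKM was 64.7, 71.9 and 64.0, the highest mean of any member (66.9 ± 4.39, SD, n = 3). Plexin B2 came next at 63.4 ± 1.69 FPKM, and the ranges of these genes overlapped. At the low dose the Ntn1 FPKM was 1.68, 37.3 and 1.97, and at the high dose it was 22.1, 1.34 and 1.60. All 6 digoxin libraries were thus below all 3 vehicle libraries, 4 of them at under 2 FPKM and the 2 libraries named above in between. Even the lowest value rested on 341 recovered reads, against 19751 to 22592 in the vehicle libraries. The log2 fold change was −3.33 (SE 1.12, adjusted p = 0.0416) at the low dose and −3.70 (SE 1.12, adjusted p = 0.0263) at the high dose. The low-dose call was lost without any single vehicle library, without low-dose sample 1 or 3, or without high-dose sample 3 (adjusted p = 0.0501 to 0.138). The high-dose call was lost without any single vehicle library or without high-dose sample 2 or 3 (0.0648 to 0.0856). Both Ntn1 calls were also lost with no filter on low values (limma adjusted p = 0.105 and 0.0718). Without both in-between libraries the changes were −4.59 (adjusted p = 7.05e-07) and −4.78 (5.22e-07).

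Unc5a, one of the Unc5 receptors for netrin-1, followed the same order of libraries. Its FPKM was 13.9, 15.6 and 13.8 with vehicle, 0.274, 5.47 and 0.521 at the low dose, and 3.41, 0.242 and 0.415 at the high dose. The vehicle mean was 6.91 times the mean at the low dose and 10.6 times that at the high dose. The lowest of these values rested on 41 reads and the vehicle values on 2823 to 3244. Unc5a changed by −2.73 (SE 0.64, adjusted p = 0.0111) and −2.96 (SE 0.64, adjusted p = 0.007), and both calls held whichever library was omitted (at most 0.0457 and 0.0277). With digoxin only low-dose sample 2 and high-dose sample 1 reached 1 FPKM, so Unc5a passed the filter through the vehicle libraries. Exons of Unc5a and of the opposite-strand gene Hk3 overlap over 0.8% of the Unc5a exonic length in GENCODE M21.

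Unc5b, the family member best known from vessels, fell less, with values closer together. Its FPKM was 26.8, 29.7 and 35.7 with vehicle, 17.4, 16 and 15.8 at the low dose, and 24.7, 19.8 and 23.4 at the high dose. All digoxin values were below all vehicle values, and the low-dose values were below all high-dose values. The log2 fold change was −0.86 (SE 0.12, adjusted p = 0.00148) at the low dose and −0.42 (SE 0.12, adjusted p = 0.0198) at the high dose. The latter call was lost without vehicle sample 2 or 3 or high-dose sample 2 (0.051 to 0.0707). Between the doses Unc5b differed by 0.44 (95% interval 0.17 to 0.71, unadjusted p = 0.00514), which did not pass over all genes (limma adjusted p = 0.183). Unc5c and Unc5d stayed under 0.1 FPKM in every library.

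The other netrins moved in opposite directions. Ntn4, a netrin of basement membranes, was at 1.75, 1.5 and 2.04 FPKM with vehicle, 0.642, 0.915 and 0.685 at the low dose and 1.26, 0.593 and 0.772 at the high dose. No digoxin value reached the lowest vehicle value, and Ntn4 fell by 0.66 (SE 0.16, adjusted p = 0.0116) and by 0.57 (SE 0.16, adjusted p = 0.018) on the log2 scale. With digoxin only high-dose sample 1 reached 1 FPKM, so Ntn4 passed the filter through the vehicle libraries. Its calls were lost without vehicle sample 3 (0.0503 and 0.0717) and, at the high dose, without high-dose sample 2 (0.0621) or 3 (0.0588). Ntn3 was near the floor with vehicle, at 0.197, 0.121 and 0.257 FPKM, and reached 1.80, 0.624 and 1.5 at the low dose and 0.422, 1.75 and 1.41 at the high dose. It passed the filter through the digoxin libraries alone, so a rise was the only change it could show (log2 0.92 and 0.83, adjusted p = 0.0283 and 0.0376). Both Ntn3 calls were lost without any single vehicle library, without the same dose's samples outside the in-between pair (0.0671 to 0.124), and when quantiles were made equal (0.18 and 0.164). The high-dose call of Ntn3 also needed low-dose sample 3 (0.0511 otherwise). With the replicate number as a block the Ntn3 calls were also lost (0.0541 and 0.0669), as was the Ntn1 call at the low dose (0.0654). Exons of Ntn3 overlap those of Tbc1d24 and BC028777 over 1.7% and 2.7% of its length, and how such reads were assigned is not given in the sources used here.

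**Figure D2:**
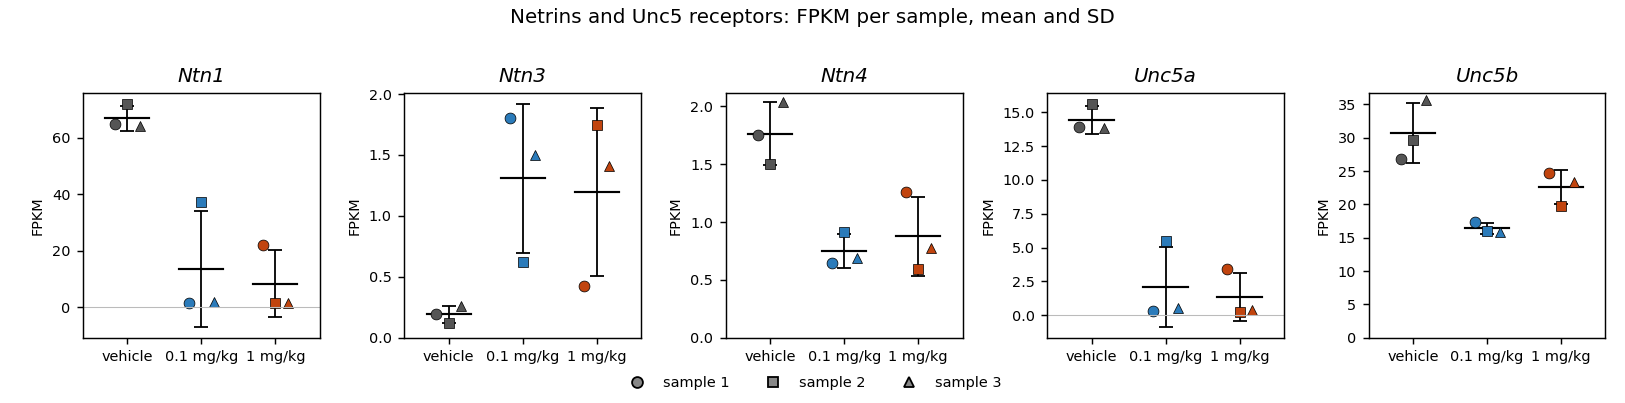
FPKM (y axis, one scale per gene) of 3 netrins and 2 Unc5 receptors in each library by group, with horizontal lines at the mean and bars of SD. In Ntn1 and Unc5a, 0.1 mg/kg sample 2 (37.3 and 5.47) and 1 mg/kg sample 1 (22.1 and 3.41) lie between vehicle and the other digoxin libraries, while Unc5b shows no such spread.

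Of 20 semaphorins in the table, 15 were tested, more than of any other family here, and 5 rose at each dose (Sema3a, Sema3b, Sema3e, Sema4a and Sema6d). Among all genes tested, 21.6% and 20.7% were called higher. Sema5a and Sema7a fell at both doses and Sema6b at the high dose. The secreted class 3 semaphorins accounted for 3 of the rises, with a median log2 fold change of 0.80 and 0.72 over 6 tested genes, none of which was called lower. One of the middle values behind each median is that of Sema3g, which passed the filter through digoxin libraries alone. Sema3b, a secreted ligand of neuropilins, was at 1.11, 0.808 and 0.752 FPKM with vehicle, 18.0, 8.31 and 14.3 at the low dose and 7.41, 18.9 and 17.2 at the high dose. Every digoxin library was above every vehicle library, and the means were 15.2 and 16.3 times that of vehicle. Sema3b rose by 2.88 (SE 0.35, adjusted p = 0.000936) and 2.94 (SE 0.35, adjusted p = 0.000746), and no left-out library ended either call (highest adjusted p = 0.00676 and 0.00551). Of the vehicle libraries only sample 1 reached 1 FPKM, so Sema3b passed the filter through digoxin libraries. A fall could thus not have been shown.

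Sema3e, which binds plexin D1 without a neuropilin, was at 2.68, 3.25 and 2.89 FPKM with vehicle, 10.8, 4.82 and 8.46 at the low dose and 10.1, 11.4 and 13.9 at the high dose. Its lowest digoxin value was above the highest vehicle value, and all high-dose values were at 10.1 or more. The change was 1.14 (SE 0.23, adjusted p = 0.00649) and 1.69 (SE 0.23, adjusted p = 0.00123), and both calls held whichever library was omitted. The difference between the doses was 0.55 (95% interval 0.02 to 1.08, unadjusted p = 0.0438, limma adjusted p = 0.353). Its receptor Plxnd1 was at 27.3 ± 2.32, 26.0 ± 5.36 and 30.1 ± 9.99 FPKM (SD, n = 3 each), and neither dose passed (log2 −0.09 and 0.08, adjusted p = 0.798 and 0.809). Without both in-between libraries Plxnd1 was higher at the high dose (0.38, adjusted p = 0.0107).

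Sema3a, the founding class 3 repellent, was at 2.37, 3.14 and 2.81 FPKM with vehicle, 7.78, 4.45 and 5.70 at the low dose and 3.71, 7.17 and 7 at the high dose. The groups did not overlap with vehicle, and Sema3a rose by 0.86 and 0.85 (SE 0.24 each, adjusted p = 0.0204 and 0.0202). Each call was lost without vehicle sample 1 or 3 and without either of the 2 high samples of the dose tested (0.0565 to 0.0721). Sema3c, Sema3f and Sema3g did not pass at either dose. Sema3c was at 2.02, 2.01 and 2.08 FPKM with vehicle, 0.640, 2.40 and 0.427 at the low dose and 1.66, 0.545 and 0.574 at the high dose. The in-between libraries thus lay at or near the vehicle level of Sema3c while the others were at a lower one. Sema3f, whose main receptor is neuropilin 2, was at 4.12 ± 0.712, 5.69 ± 2.03 and 6.91 ± 3.86 FPKM. Sema3g was at 0.571 ± 0.140, 1.64 ± 0.321 and 1.5 ± 0.909 FPKM and passed the filter through digoxin libraries alone (adjusted p = 0.0511 and 0.0972). The low-dose call of Sema3g passed with a pseudocount of 0.1 or 0.01, equal medians, no trend or limma-voom (0.0429 to 0.0492) and in a fit of the compared groups alone (0.00715). Without both in-between libraries Sema3c was lower (log2 −0.99 and −0.96, adjusted p = 0.000177 and 0.000201; 0.0402 at the high dose in a fit of the compared groups alone), and Sema3f (0.60 and 0.98, 0.0085 and 0.000867) and Sema3g (0.85 and 0.94, 0.00075 and 0.00047) were higher.

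The neuropilins, the ligand-binding co-receptors of class 3 semaphorins, parted. Nrp2 fell at both doses, from 28.1, 33.8 and 29.1 FPKM with vehicle to 15.0, 17.3 and 13.9 at the low dose and 18.7, 13.7 and 13.6 at the high dose. Every digoxin value was below the lowest vehicle value , and the in-between libraries were the highest of their groups. The change was −0.94 and −0.95 (SE 0.14 each, adjusted p = 0.00183 and 0.00144), and it passed whichever library was omitted (at most 0.0108 and 0.00865). Nrp1 was at 4.49 ± 0.320, 4.97 ± 0.678 and 4.58 ± 1.34 FPKM, and neither dose passed (log2 0.12 and −0.00, adjusted p = 0.61 and 0.99). The difference between Nrp1 and Nrp2 responses was not tested.

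**Figure D3:**
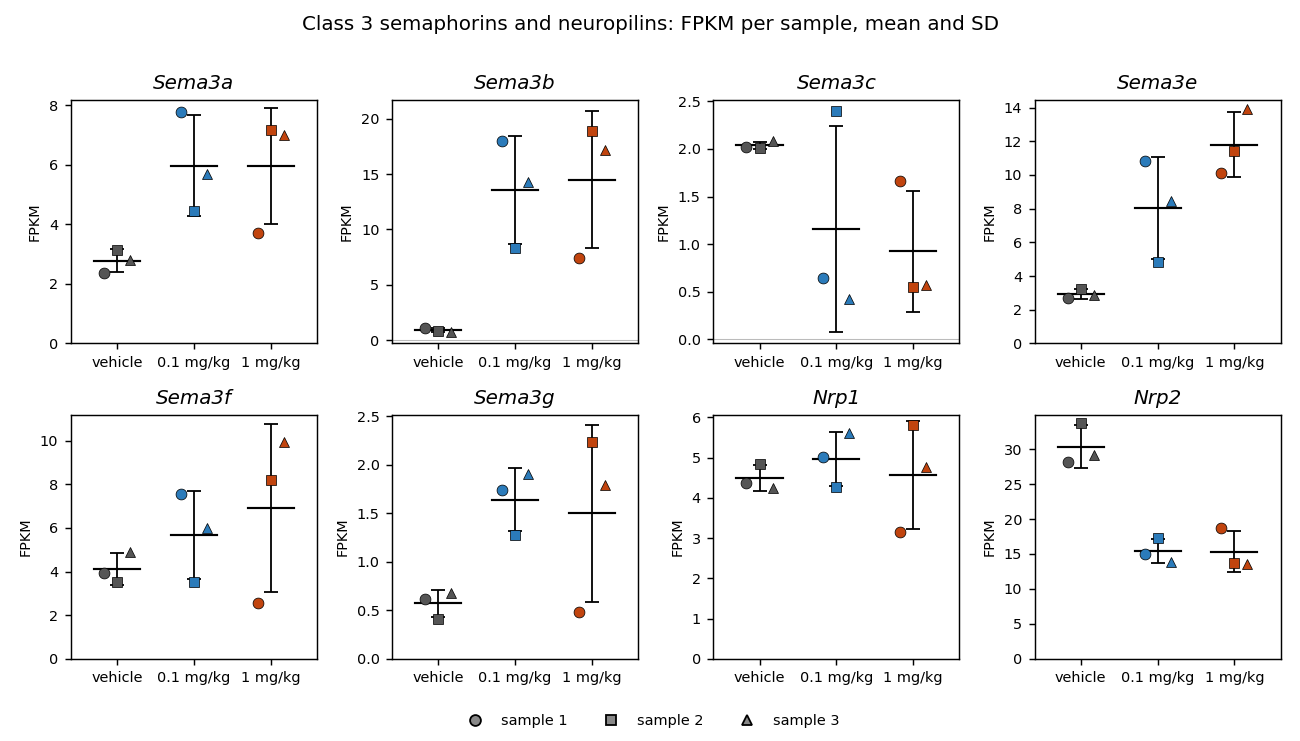
FPKM (y axis, one scale per gene) of the 6 tested class 3 semaphorins and both neuropilins in each library by group, with the mean and SD. Sema3b is between 0.752 and 1.11 with vehicle and between 7.41 and 18.9 with digoxin, and Nrp2 goes from 28.1 or more to 18.7 or less.

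Among the membrane-bound semaphorins, Sema4a and Sema6d rose. Sema4a, known from T cell costimulation, was at 4.95, 3.97 and 4.34 FPKM with vehicle, 12.1, 7.34 and 11.4 at the low dose and 5.22, 12.1 and 10.6 at the high dose. All digoxin values lay above vehicle, but high-dose sample 1 only just did. The change was 1.03 and 0.86 (SE 0.28 each, adjusted p = 0.0182 and 0.0326). The first was lost without vehicle sample 2 or 3 or low-dose sample 1 or 3 (0.0565 to 0.0655). The second was lost without any single vehicle library, without high-dose sample 2 or 3 (0.0594 to 0.106), and with the replicate number as a block (0.0603). Sema6d, a ligand of class A plexins, was at 1.96, 2.82 and 2.41 FPKM with vehicle, 6.39, 3.45 and 6.80 at the low dose and 3.93, 7.87 and 8.07 at the high dose. It rose by 0.91 (SE 0.28, adjusted p = 0.0301) and 1.12 (SE 0.28, adjusted p = 0.0123), with no overlap between digoxin and vehicle values. The Sema6d call at the low dose was lost without any single vehicle library or low-dose sample 1 or 3 (0.0576 to 0.106), and that at the high dose held throughout (highest 0.046).

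Sema5a, a semaphorin with thrombospondin repeats, and Sema7a, which is tied to the membrane by a lipid anchor and binds integrins and plexin C1, fell. Sema5a was at 3.45, 4.74 and 4.27 FPKM with vehicle, 1.33, 2.43 and 1.32 at the low dose and 2.41, 1.27 and 1.41 at the high dose. It changed by −0.95 at both doses (SE 0.21 each, adjusted p = 0.00813 and 0.0071), and both calls held without any 1 library. Sema7a was at 18.6, 20.6 and 20 FPKM with vehicle, 10.9, 8.81 and 12.3 at the low dose and 4.42, 11.3 and 10.5 at the high dose. Here the in-between libraries were the lowest of their groups and not the nearest to vehicle. Sema7a fell by 0.84 (SE 0.28, adjusted p = 0.0396) and by 1.18 (SE 0.28, adjusted p = 0.00983) on the log2 scale. Its call at the low dose was lost without any single vehicle or low-dose library (0.0671 to 0.105). Sema7a passed without both in-between libraries at −0.72 and −0.80 (adjusted p = 0.000172 and 0.000107). Plxnc1, a Sema7a receptor, was at 0.701 ± 0.0976, 1.42 ± 0.524 and 1.2 ± 0.307 FPKM and did not pass (adjusted p = 0.0563 and 0.125). With all libraries kept, its low-dose call passed with no trend (0.0454) and with limma-voom (0.0363). Plxnc1 passed the filter through digoxin libraries alone, and was higher without both in-between libraries (log2 0.64 and 0.48, adjusted p = 0.00361 and 0.0128).

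Sema6b was at 14.0, 12.6 and 12.7 FPKM with vehicle, 9.71, 12.5 and 9.80 at the low dose and 9.97, 9.73 and 11.1 at the high dose. It fell by 0.33 at the high dose (SE 0.11, adjusted p = 0.0348), was −0.28 at the low dose (adjusted p = 0.0621), and was lower at the low dose too after rescaling to TPM (0.0175), quantile normalisation (0.0426) or equal medians (0.0489). The call at the high dose was lost without any single vehicle library or high-dose sample 1 or 2 (0.0593 to 0.107) and with the replicate block (0.0683). Sema4c, the most abundant semaphorin and a plexin B2 ligand, was at 36.7 ± 6.74, 34.0 ± 1.95 and 31.1 ± 7.21 FPKM and did not pass (adjusted p = 0.703 and 0.301). Sema4b was at 12.8 ± 0.0303, 13.7 ± 2.79 and 13.9 ± 0.940 FPKM, and Sema6c at 1.40 ± 0.493, 1.46 ± 0.217 and 1.32 ± 0.382. Sema4d, a plexin B ligand on lymphocytes, was at 5.84, 1.48 and 2.39 FPKM at the high dose against 2.81 to 3.15 with vehicle. The high Sema4d value was that of high-dose sample 1, and the gene did not pass (log2 0.01 and −0.06, adjusted p = 0.99 and 0.898).

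Of the 6 tested plexins, the signalling receptors of semaphorins, Plxna3 alone passed. It is a partner of neuropilins. Plxna3 was at 6.04, 7.18 and 7.5 FPKM with vehicle, 4.93, 5.20 and 3.60 at the low dose and 4.04, 4.35 and 3.94 at the high dose. No digoxin value reached the lowest vehicle value, and the change was −0.51 (SE 0.13, adjusted p = 0.0141) and −0.63 (SE 0.13, adjusted p = 0.00542). The first call was lost without vehicle sample 2 (0.0534) or 3 (0.0577). Plxnb2 was at 63.4 ± 1.69, 68.5 ± 9.53 and 71.8 ± 2.33 FPKM, which did not pass (log2 0.10 and 0.18, adjusted p = 0.432 and 0.176). Plxnb2 was higher without low-dose sample 2 alone (0.21 and 0.18, 0.0369 and 0.0479) and without both in-between libraries (0.21 and 0.20, 0.0167 and 0.0211). Plxna1 was at 20.4 ± 1.42, 19.3 ± 1.44 and 19.5 ± 2.06 FPKM (adjusted p = 0.569 and 0.632), and Plxna2 at 0.669 ± 0.0769, 1.05 ± 0.185 and 0.894 ± 0.337 FPKM (0.16 and 0.408). Plxna2 passed the filter through digoxin libraries alone and was higher without both in-between libraries (log2 0.37 and 0.32, 0.0145 and 0.0252). Plxnb1, a Sema4d receptor, stayed below the filter, with 0.673, 0.646 and 0.708 FPKM with vehicle, 0.199, 0.231 and 0.183 at the low dose and 0.205, 0.170 and 0.203 at the high dose. All 6 digoxin values, the in-between libraries included, lay in this narrow range and rested on 66 to 95 reads. Plxnb1 was named after its values were seen. Tested with no filter, it passed at both doses (log2 −0.48 and −0.49, adjusted p = 0.00361 and 0.00287).

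Ephrins moved both ways. Efnb2, the transmembrane ligand of Ephb4 and a mark of arterial vessels, was at 4.08, 3.97 and 4.22 FPKM with vehicle, 1.00, 2.56 and 1.09 at the low dose and 1.38, 0.985 and 1.28 at the high dose. Every digoxin value was below vehicle, with low-dose sample 2 in between and high-dose sample 1 close to its group. Efnb2 changed by −1.05 (SE 0.21, adjusted p = 0.00555) and −1.20 (SE 0.21, adjusted p = 0.00271), and no left-out library ended a call. Efnb3 was at 1.45, 1.71 and 1.53 FPKM with vehicle, 0.410, 0.995 and 0.907 at the low dose and 1.00, 0.503 and 0.651 at the high dose. It changed by −0.55 and −0.59 (SE 0.17 each, adjusted p = 0.0302 and 0.0216). No digoxin value was above 1.00 FPKM, so Efnb3 passed the filter through the vehicle libraries. Its call at the low dose was lost without any single vehicle library, without low-dose sample 1 or 3 (0.0554 to 0.0967) with the replicate block (0.0621) and with a pseudocount of 0.01 (0.0517). That at the high dose was lost without vehicle sample 2 or 3 or high-dose sample 2 or 3 (0.0609 to 0.0743).

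Of the lipid-anchored A ephrins, Efna5 rose and Efna2 was lower. Efna5 was at 2.70, 3.27 and 2.76 FPKM with vehicle, 4.22, 3.93 and 5.06 at the low dose and 3.99, 4.09 and 4.46 at the high dose. The groups did not overlap with vehicle, and the change was 0.46 and 0.41 (SE 0.11 each, adjusted p = 0.00989 and 0.0146), lost at the high dose without vehicle sample 3 (0.0556) or high-dose sample 3 (0.0553). Efna2 was at 3.53, 3.41 and 3.05 FPKM with vehicle, 1.49, 2.67 and 1.31 at the low dose and 2.79, 1.54 and 1.69 at the high dose. It fell at the low dose (log2 −0.65, SE 0.20, adjusted p = 0.0334) and was −0.55 at the high dose (adjusted p = 0.0549). The first call was lost without any single vehicle library or low-dose sample 1 or 3 (0.07 to 0.117), and the second passed after rescaling to TPM (0.0368), in a fit of the compared groups alone (0.0353) and without low-dose sample 2 (0.0223) or high-dose sample 1 (0.0138). Efna1, the most abundant ephrin, was at 10.5 ± 0.502, 10.1 ± 2.43 and 10.2 ± 1.88 FPKM (adjusted p = 0.752 and 0.847). Efna4 was at 5.37 ± 0.246, 9.08 ± 2.80 and 7.18 ± 3.13 FPKM and did not pass (0.122 and 0.463). Its exons overlap an antisense gene over 10.5% of their length. Efna4 was higher without both in-between libraries (log2 0.86 and 0.62, adjusted p = 0.000698 and 0.00341), and at the low dose in a fit of the compared groups alone (0.0399).

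Of 12 Eph receptor genes in the table, 3 were tested. Epha2, a receptor tyrosine kinase for A ephrins that many carcinomas express, was at 31.0, 33.7 and 27.9 FPKM with vehicle, 11.8, 23.2 and 12.8 at the low dose and 33.4, 16.9 and 16.8 at the high dose. High-dose sample 1 was thus within the vehicle range of Epha2, and the other digoxin samples were below it. Epha2 fell at the low dose (log2 −0.97, SE 0.30, adjusted p = 0.0308) and did not pass at the high dose (−0.52, SE 0.30, adjusted p = 0.188). The difference between the doses was not called either (log2 0.45, 95% interval −0.23 to 1.14, limma adjusted p = 0.568). The call at the low dose was lost without any single vehicle library or low-dose sample 1 or 3 (0.0655 to 0.104). Without high-dose sample 1, Epha2 was lower at the high dose (adjusted p = 0.0226), as it was without both in-between libraries (log2 −0.83, 0.000143). Ephb3 was at 1.99, 2.49 and 2.04 FPKM with vehicle, 0.344, 2.09 and 0.299 at the low dose and 1.48, 0.356 and 0.673 at the high dose. Its in-between libraries reached or neared the vehicle range and it did not pass (log2 −0.85 and −0.83, adjusted p = 0.0745 and 0.0765). With all libraries kept, Ephb3 passed at the low dose with limma-voom (−1.85, 0.0396) and at the high dose in a fit of the compared groups alone (−0.83, 0.025). It also passed without both in-between libraries (−1.26 and −1.07, 0.00017 and 0.000363). Without low-dose sample 2 alone it passed at both doses (0.00421 and 0.0145), and without high-dose sample 1 at the high dose (0.0338). Ephb4, the venous receptor of Efnb2, was at 10.8 ± 0.396, 9.65 ± 2.23 and 10.4 ± 2.82 FPKM (adjusted p = 0.523 and 0.751).

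**Figure D4:**
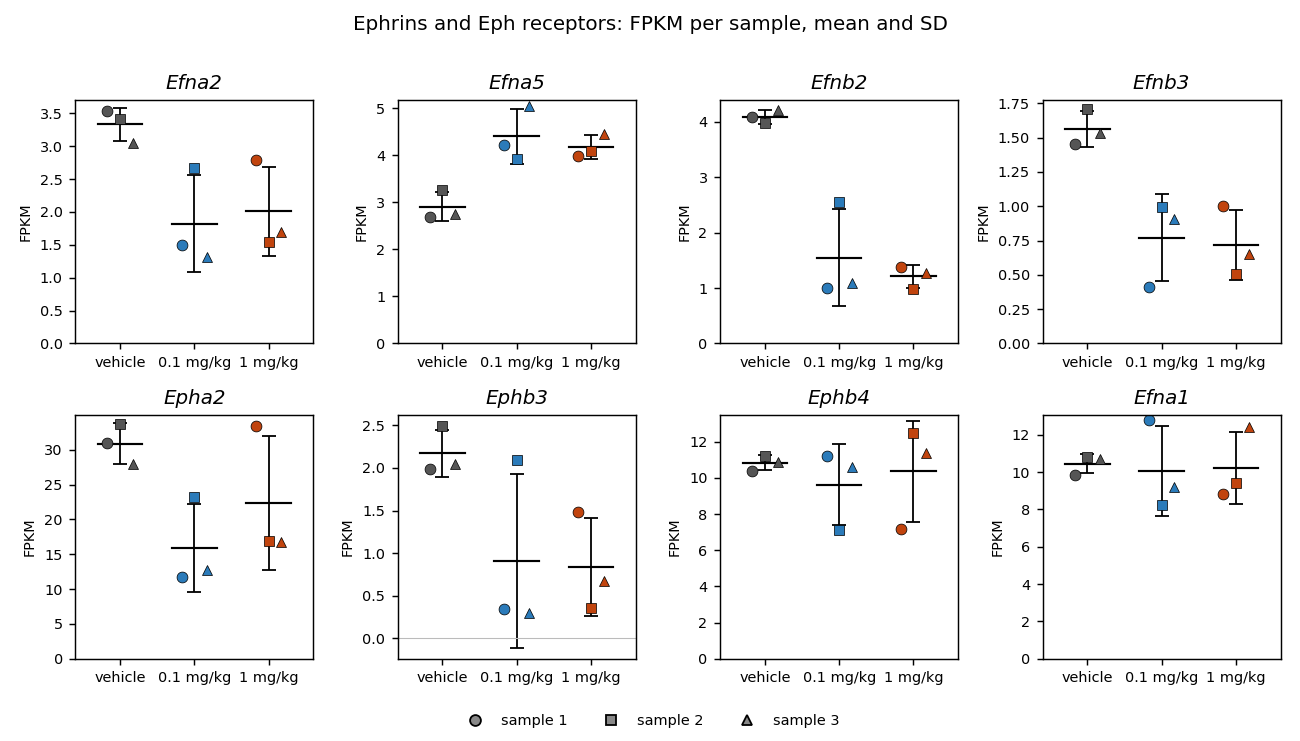
FPKM (y axis, one scale per gene) of 5 ephrins and 3 Eph receptors in each library by group, with the mean and SD. Efnb2 is at 3.97 or more with vehicle and at 2.56 or less with digoxin, while Ephb4 and Efna1 overlap between the groups.

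Slits and most Robo receptors were near the floor. None of the 3 Slits reached the filter, and Robo1, Robo2 and Robo3 were under 0.1 FPKM in every library. Slit2, the secreted Robo ligand, was at 0.134, 0.229 and 0.181 FPKM with vehicle and at 0.00194 to 0.0726 with digoxin, on 2 to 78 reads. Robo4, the endothelial Robo, was at 3.53, 3.31 and 3.95 FPKM with vehicle, 3.50, 2.98 and 4.21 at the low dose and 1.61, 5.24 and 4.69 at the high dose. It did not pass (log2 −0.02 at both doses, adjusted p = 0.968 and 0.96). Its direction at the high dose rested on sample 1, without which it was higher (log2 0.38, adjusted p = 0.0377). The summed FPKM of 12 endothelial markers was also lowest in that library, at 73.5, against 153 and 158 in the other samples of the dose and 108 to 131 with vehicle. The part of these cells in the result was not tested.

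Of the 31 members below the filter, 23 were under 0.5 FPKM in every library and 11 were under 0.1, and the highest value was 1.23 FPKM (Ephb6 in vehicle sample 2). Ephb6, a kinase-dead Eph receptor, was at 0.844, 1.23 and 1.14 FPKM with vehicle and at 0.379 to 0.575 with digoxin. Ephb6, Plxnb1 and Slit2 were the 3 members below the filter with all digoxin values under all vehicle values. Epha1 and Epha10 were the 2 with all digoxin values above them. The share of all genes below the filter that part in this way was not taken, so these counts cannot be read as particular to the members. Epha8 was at 0.950 FPKM in low-dose sample 1 and 0.660 in high-dose sample 3, and at 0.0837 or less in the other libraries. Plxna4os1 was at 0.338 to 0.498 FPKM with vehicle or the low dose and at 0.139 to 0.193 at the high dose, where it passed with no filter (log2 −0.33, adjusted p = 0.012). The counting is not stated to use strand, so Plxna4 and its antisense transcripts may share reads.

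Across the called members, the 2 in-between libraries held a common place. Position was taken on the log2 scale as the percent of the way from the vehicle mean to the mean of the group's other samples. For low-dose sample 2 the median position over the 19 members called at that dose was 50.9%, and it was the sample nearest to vehicle for 17 of them, with Sema7a (150%) and Unc5b (106%) as exceptions. For high-dose sample 1 the median over 18 members was 56.6%, and it was nearest to vehicle for 15. The exceptions were Sema7a (242%), Sema6b (118%) and Plxna3 (105%). Within this pattern Ntn1 moved only 17.9% of the way in low-dose sample 2 and 32.4% in high-dose sample 1. Sema3b had moved 72.6% and 64.7% of the way. Sema3e and Efnb2 differed between these libraries, with 39.7% and 39.1% in low-dose sample 2 and 83.4% and 87.3% in high-dose sample 1.

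**Figure D5:**
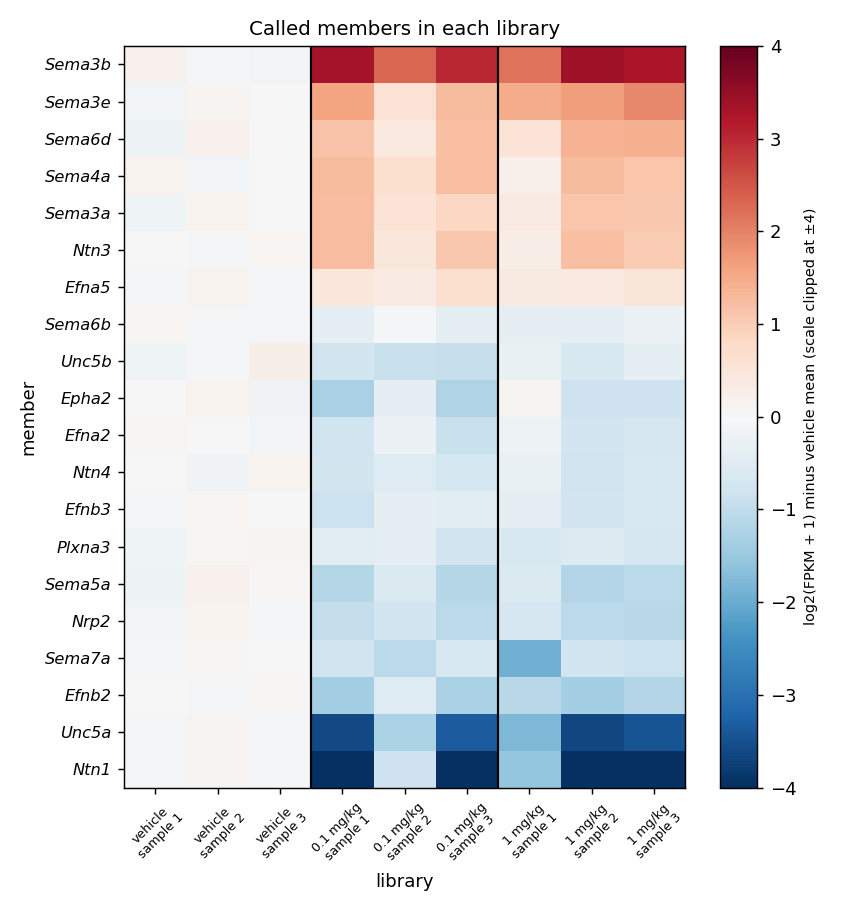
Log2(FPKM + 1) minus the vehicle mean (colour, clipped at ±4) for the 20 members called at either dose (rows) in each of the 9 libraries (columns, black lines between groups). Red is above and blue below vehicle. The columns of 0.1 mg/kg sample 2 and 1 mg/kg sample 1 are paler than those beside them in most rows, but not for Sema7a.

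Comparing the doses asked which members responded differently to the high dose than to the low dose. None of the 38 passed in limma, where 2 of 13687 genes did (0.0146%), and limma-voom on recovered reads also called none. At an unadjusted p under 0.05 there were 2 members, Sema3e and Unc5b, where 13.6% of all tested genes reached that level. The doses share their vehicle libraries: 17 members were called at both, Efna2 and Epha2 at the low dose alone and Sema6b at the high dose alone. For Ntn1 the 95% interval of the difference between the doses ran from −2.93 to 2.18 on the log2 scale. For Nrp2 it ran from −0.33 to 0.30.

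Other genes of these pathways were taken from a list of 83 co-receptors, further cues and intracellular effectors, of which 69 were tested. At the low dose 18 rose and 21 fell, and at the high dose 18 rose and 24 fell, or 56.5% and 60.9% of those tested, against 42.2% and 45.9% of all genes tested. At the low dose the falls numbered 9 without vehicle sample 2, 10 without vehicle sample 3 and 11 without low-dose sample 1 or 3. The share of all genes called in those fits is likewise not given. Flrt3, a membrane protein that binds Unc5 receptors, went from 0.114 ± 0.0373 to 2.25 ± 1.12 and 3.41 ± 0.413 FPKM (log2 1.48 and 1.98, adjusted p = 0.00309 and 0.000888). Flrt3 passed the filter through digoxin libraries alone, so a rise was the one change it could show. Srgap3, a Slit-Robo GTPase-activating protein, rose from 2.81 ± 0.380 to 8.91 ± 2.57 and 11.5 ± 0.608 FPKM (1.35 and 1.72). Ngef, the exchange factor ephexin that binds EphA receptors, fell from 3.56 ± 0.961 to 0.288 ± 0.304 and 0.181 ± 0.135 FPKM (−1.83 and −1.93, adjusted p = 0.00076 and 0.000518). Ngef was under 1 FPKM in every digoxin library and passed through vehicle libraries alone. Dpysl2, the semaphorin effector CRMP2, rose by 0.95 and 0.76. Arhgef11, an exchange factor of B plexins, changed by −0.85 and −0.53, and Dag1, dystroglycan, which binds Slits, by −0.89 and −0.65. The kinase Pak1 (−0.39 and −0.67) and the netrin effector Dock1 (−0.64 and −0.43) fell too.

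Marker genes of other cell types also differed between the groups, and their part in the members' changes was not tested. The summed FPKM of 12 fibroblast markers was 1178 to 1295 with vehicle, 409 to 842 at the low dose and 407 to 693 at the high dose, with 5 and 6 of 12 called lower and 4 and 2 higher. The 12 neutrophil markers summed to 81.8 to 223, 162 to 834 and 527 to 1241 FPKM, with 7 and 9 of 11 tested called higher. The 12 T cell markers summed to 23.6 to 29.5, 47.1 to 80.6 and 9.69 to 33.8 FPKM, with 7 of 9 tested higher at the low dose and 1 lower at the high dose. The 12 macrophage markers summed to 2808 to 3156, 2958 to 4481 and 2138 to 3295 FPKM (5 higher at each dose, 2 lower at the high dose). The 12 skeletal muscle markers summed to 53 to 127, 199 to 393 and 93.9 to 1273 FPKM, with 5 of 10 higher at each dose. For the 12 nerve and Schwann cell markers the sums were 20.7 to 28.1, 19.6 to 23 and 12.9 to 14 FPKM, with 2 and 3 of 5 tested lower and 1 higher. None of the 12 endothelial markers was called at either dose. No marker was at 0 in all libraries, and only Pmp2, of the nerve list, was under 0.1 FPKM throughout.

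Promoter sequences are shown for the members that moved furthest together among those with an entry: the 2 largest falls and the 2 largest rises called at both doses. Entries of RefSeq on GRCm38.p6, from 250 bases before to 50 after a start, were matched for 57 of the 69 members, and Ntn1 and Sema3b were not among them. These positions belong to the RefSeq build alone. Capitals mark a GC box (GGGCGG) or an E box (CACGTG), searched on both strands, and the motifs can share at most 1 base. Unc5a (chr13:54949161-54949460, + strand) and Efnb2 (chr8:8661193-8661492, − strand) fell, and Sema3e (chr5:14025026-14025325, + strand) and Sema6d (chr2:124089719-124090018, + strand) rose.
Unc5a: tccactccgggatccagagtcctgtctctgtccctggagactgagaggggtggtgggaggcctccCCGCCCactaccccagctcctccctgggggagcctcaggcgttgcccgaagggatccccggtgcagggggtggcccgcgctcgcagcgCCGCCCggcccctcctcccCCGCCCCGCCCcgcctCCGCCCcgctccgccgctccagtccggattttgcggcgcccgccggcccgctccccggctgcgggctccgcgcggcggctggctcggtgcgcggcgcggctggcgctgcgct
Efnb2: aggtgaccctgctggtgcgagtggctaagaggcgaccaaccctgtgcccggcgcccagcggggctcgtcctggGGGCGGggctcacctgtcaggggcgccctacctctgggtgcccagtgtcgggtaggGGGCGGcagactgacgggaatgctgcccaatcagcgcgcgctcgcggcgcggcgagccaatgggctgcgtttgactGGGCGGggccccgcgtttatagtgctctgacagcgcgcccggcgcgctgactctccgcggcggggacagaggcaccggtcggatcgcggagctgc
Sema3e: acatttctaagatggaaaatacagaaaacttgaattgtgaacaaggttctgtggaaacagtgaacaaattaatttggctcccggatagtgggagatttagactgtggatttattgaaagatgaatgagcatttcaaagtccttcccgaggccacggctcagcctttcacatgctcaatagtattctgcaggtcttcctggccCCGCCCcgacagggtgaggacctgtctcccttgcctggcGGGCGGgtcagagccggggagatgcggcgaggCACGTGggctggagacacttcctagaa
Sema6d: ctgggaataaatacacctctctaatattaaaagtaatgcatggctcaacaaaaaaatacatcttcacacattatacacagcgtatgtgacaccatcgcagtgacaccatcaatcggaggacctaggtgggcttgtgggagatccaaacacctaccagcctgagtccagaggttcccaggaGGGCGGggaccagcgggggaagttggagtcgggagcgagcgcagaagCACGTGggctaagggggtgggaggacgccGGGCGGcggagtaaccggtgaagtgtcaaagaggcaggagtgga
GC boxes numbered 5 in the Unc5a promoter, 3 in that of Efnb2 and 2 each in those of Sema3e and Sema6d, and the last 2 also held 1 E box each. A second Sema6d entry held neither. An AP-1 site (TGANTCA, both strands) was in none of them, and in none of the 18 promoters of the 14 members called at both doses that had an entry. It was in only 3 of the 73 promoters of all members (4.11%), against 7.81% of all 32851 promoters. A GC box was in 15 of these 18 promoters, in 69.9% of the 73 promoters of all members and in 35.7% of all promoters. The E box was in 2 of 18, against 6.85% of the promoters of all members and 7.15% of all promoters. GC content was 67.3% to 78.3% (median 71.0%) in the 8 promoters of members that fell. It was 41.3% to 73.3% (median 57.5%) in the 10 promoters of 6 members that rose. The median was 64.3% over all members' promoters and 52.7% over all promoters. These matches describe the sequence only.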

How the data were processed

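One deposited table gave the FPKM of each gene in 9 samples. The authors made these FPKM values, and fastp 0.22.0 and HISAT2 2.2.1 are named, per the submitters' processing notes, with the genome build GRCh38. GRCh38 is a build of the human genome, though gene symbols in the table are in mouse form. Which counter and gene models were used is not given in the sources used here. Libraries were poly(A)-selected and read as 150 bp pairs, per the labels' protocols.

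From the deposited FPKM, log2(FPKM + 1) was tested with limma 3.58.1 in R 4.3.3 (all 9 samples, a mean for each group, mean-variance trend, moderated two-sided tests, 6 residual and 2.71 prior degrees of freedom). Depths and reads were recovered from the spacing of the FPKM values, within 0.03 reads for 99.93% of tested genes. They served as precision and for limma-voom, an added alternative. Replicate numbers were not taken as pairs. The fit was also run on simulated data with known changes, which held no libraries lying between the groups. The members and lists were chosen with earlier results of these data known. Genes named were, per family, up to 5 tested members with the smallest p at either dose, the most abundant member, every tested member where there were 3 or fewer, any called between the doses, and the 8 pathway genes with the smallest p. Alternatives were other pseudocounts, filters, scalings, variance models, a replicate block and leaving out each library. The remaining members were named after their values were seen. Python 3.11.15, NumPy 2.4.6, SciPy 1.17.1 and matplotlib 3.10.9 did the rest.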

Additional observations from a re-analysis of the deposited data

Results flagged for a closer look

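A pair of members too low to be tested had more signal in every digoxin library than in any vehicle library, with at least 10 recovered reads in each digoxin library. Epha1, an Eph receptor of epithelia, averaged 0.435 FPKM over the 6 digoxin libraries (0.314 to 0.687, 50 to 114 reads), against 0.22 FPKM or less with vehicle (at most 42 reads). Its exons overlap those of Zyx on the other strand over 6.0% of their length. Epha10, a kinase-dead Eph receptor, averaged 0.166 FPKM over the digoxin libraries (0.097 to 0.284, 30 to 83 reads), against 2 reads in vehicle sample 1 and none in the other vehicle libraries. Tested with no filter, Epha10 passed at the high dose (log2 0.24, limma adjusted p = 0.0319) and not at the low dose (0.19, 0.0747). Epha1 passed at neither dose (log2 0.24 and 0.31, limma adjusted p = 0.146 and 0.0664). Both genes were picked for digoxin values above all vehicle values, so a rise was the only change these tests could show. How many genes below the filter meet the same rule over the whole table was not counted. No group had enough samples for a test of single outlying values.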

How the results depend on the processing

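Each count and each tested member was recomputed under the alternatives, except that a filter at a mean of 5 FPKM leaves no value for members below it. Limma-voom and the fit without both in-between libraries were chosen after seeing the data. Shares of all genes called are given only for the main fit and the fit without both in-between libraries. Under the other settings a changed count cannot be read as particular to the members. With the filter set at 5 FPKM on average, 3 members rose and 7 fell at either dose. At an adjusted p under 0.01 the rises were 3 and 2 and the falls 4 and 6 at 0.1 and 1 mg/kg. Without both in-between libraries the rises were 13 and 15. Leaving out 1 library at a time gave 3 to 10 rises and 5 to 14 falls at the low dose, 3 to 11 rises and 6 to 14 falls at the high dose, and 0 between the doses. Robo4 reversed at the high dose without high-dose sample 1 (log2 0.38, within −0.25 to 0.38 over the libraries left out) and without both in-between libraries (0.38). With the replicate number as a block, 6 rose and 10 fell at the low dose and 5 and 10 at the high dose. Deviations of same-numbered samples correlated at −0.441 to 0.279, so the numbers were not taken as pairs. The block ended 6 calls, those of Ntn3 at both doses, Ntn1 and Efnb3 at the low dose and Sema4a and Sema6b at the high dose. With no filter, over all 35321 genes, 5 rose and 10 fell at the low dose and 5 and 12 at the high dose. In that fit 16 calls of tested members were lost. Members below the filter gained calls: Ephb2, Ephb6, Plxnb1, Plxnb3 and Slit2 at the low dose, and Epha10, Ephb1, Ephb6, Plxna4os1, Plxnb1 and Slit2 at the high dose. Rescaling to TPM moved the median of all tested genes at the high dose from −0.04 to −0.11. Members under 1 FPKM rest on few reads, and the 3 samples of a group set the precision of the rest.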

Other observations

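The list of pathway genes held further groups that are not described above, named after their values were seen. The collapsin response mediators carry semaphorin signals to microtubules, and 3 of them were tested. Crmp1 was at 7.05, 6.77 and 6.76 FPKM with vehicle, 0.407, 3.78 and 0.164 at the low dose and 2.01, 0.322 and 0.203 at the high dose. Dpysl3 was at 71.4, 71.2 and 66.2 FPKM with vehicle, 10.7, 58.8 and 11.2 at the low dose and 31.2, 11.4 and 8.87 at the high dose. Both had the in-between libraries of Ntn1 and Unc5a and fell (Crmp1 log2 −1.98 and −2.22, limma adjusted p = 0.0173 and 0.00978, and Dpysl3 −1.79 and −2.16, 0.0498 and 0.0234). Dpysl2, in contrast, was at 12.0 to 14.8 FPKM with vehicle and 21.2 to 31.8 with digoxin. The Crmp1 call at the low dose was lost for 4 of the 9 libraries left out in turn, and those of Dpysl3 for 7 and 5. With digoxin only the in-between libraries reached 1 FPKM of Crmp1, so it passed the filter through the vehicle libraries.

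Neogenin, a receptor shared by netrins and the repulsive guidance molecules, fell, as did the repulsive guidance molecules Rgma and Rgmb. The tested netrins moved both ways, with Ntn1 and Ntn4 lower and Ntn3 higher. Neo1 was at 8.66 to 10.3 FPKM with vehicle, 5.41 to 6.77 at the low dose and 6.49 to 7.41 at the high dose (log2 −0.60 and −0.42, limma adjusted p = 0.00311 and 0.0101). Rgma was at 11.2 to 11.9, 5.85 to 8.64 and 5.47 to 6.31 FPKM (−0.64 and −0.89, 0.00489 and 0.00117), and Rgmb at 21.6 to 24.5, 11.6 to 17.8 and 11.5 to 14.5 FPKM (−0.74 and −0.85, 0.00776 and 0.00376). For Neo1, Rgma and Rgmb the digoxin groups did not overlap with vehicle, and no left-out library ended a call. Dcc, the attractive netrin receptor, was at 0.0112 FPKM or less in every library.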
